A study of Rattus norvegicus with 12 samples.

Results

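The FXYD proteins and the beta subunits of the sodium pump were followed at the messenger RNA level in rat inner medullary collecting duct (IMCD) cells in primary culture, which form the terminal segment of the tubule where urine reaches its final concentration. The 9 genes were Fxyd1, Fxyd2, Fxyd3, Fxyd4, Fxyd5, Fxyd6, Atp1b1, Atp1b2 and Atp1b3, of 14506 genes tested in all. They were chosen by name, with earlier results of these data known. Each was represented by 1 probe set that the array annotation assigns to that gene alone, the one with the highest mean over the arrays where there were several. The cells came from kidneys of male Sprague-Dawley rats aged 7 weeks and all spent their first 4 days in culture at 640 mOsm/kg. One group was then moved to 300 mOsm/kg for 24 h and its control was kept at 640 mOsm/kg for the same 24 h. A second group was moved to 300 mOsm/kg for 48 h and its control was kept at 640 mOsm/kg for 48 h. There were 3 samples in each of the 4 groups and 1 Affymetrix Rat Gene 1.0 ST array per sample. Nothing in the labels tells whether replicates were separate animals or dishes, and the p-values therefore reflect the spread among samples that may be technical repeats.

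The sodium pump (Na,K-ATPase) is a complex of a catalytic alpha subunit, which splits ATP and carries the ions, and a glycosylated beta subunit, which the alpha subunit needs in order to fold and to reach the plasma membrane. FXYD proteins are small single-span membrane proteins, named for a short conserved motif of amino acids, that bind the pump and change its affinity for sodium, potassium or ATP. In the collecting duct the pump sits in the basolateral membrane and drives sodium out of the cell. In a mouse collecting duct cell line, the FXYD2 protein (the gamma subunit) is known to accumulate in hypertonic medium.

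Promoter sequence is shown for 3 members. Of these, Fxyd4 and Atp1b3 were lower on every array at 300 than at 640 mOsm/kg after 48 h. Fxyd5 overlapped, as did other members that are not shown. The stretches lie directly before the annotated start of each gene in RefSeq's GRCr8 assembly, all on the minus strand and written 5′ to 3′ along the gene. Fxyd4 is chr4:152786119-152786295, Atp1b3 is chr8:105821152-105821401 and Fxyd5 is chr1:95404723-95404972. Capitals mark TGGAAA, the opening letters of the tonicity-responsive element bound by Nfat5, searched on both strands.
Fxyd4: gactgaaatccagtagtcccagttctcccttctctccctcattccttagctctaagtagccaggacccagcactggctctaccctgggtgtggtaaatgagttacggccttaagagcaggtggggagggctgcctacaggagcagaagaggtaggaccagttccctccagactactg
Atp1b3: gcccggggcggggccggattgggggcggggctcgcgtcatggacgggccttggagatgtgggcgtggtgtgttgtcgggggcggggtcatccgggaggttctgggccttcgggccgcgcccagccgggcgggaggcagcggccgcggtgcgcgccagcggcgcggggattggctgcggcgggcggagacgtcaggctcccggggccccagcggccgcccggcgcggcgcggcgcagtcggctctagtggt
Fxyd5: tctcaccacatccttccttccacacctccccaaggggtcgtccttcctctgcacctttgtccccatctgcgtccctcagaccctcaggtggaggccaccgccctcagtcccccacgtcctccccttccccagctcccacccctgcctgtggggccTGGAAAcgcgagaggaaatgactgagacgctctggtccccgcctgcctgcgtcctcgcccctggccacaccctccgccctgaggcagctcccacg
The Fxyd5 stretch held 1 match and the other 2 stretches held 0. A second promoter window of Fxyd5 in the same table, not shown, also held 0. Fxyd1 and Atp1b2 overlapped at 48 h too, and their stretches of 185 and 250 bases, not shown, held 0. The stretch of Fxyd6, 3 bases, was too short to hold the letters, and Fxyd2, Fxyd3 and Atp1b1 had no sequence. Among the members with a longer stretch only Fxyd5 had a match, and the contrast among the 3 shown depends on that choice. Over the full windows, 250 bases before to 50 bases after the start, 6 of the 9 members had a sequence and 3 of these held the letters (Fxyd1, Fxyd5 in 1 of its 2 windows, and Fxyd6). They occur in 22.7% of all 33469 promoter windows of that table, which is a share of windows, while the members were counted as genes. In the same assembly Fxyd6 directly precedes Fxyd2 among the protein-coding genes of chromosome 8. On chromosome 1, Fxyd5 is followed by Fxyd7 and Fxyd1, and then by Fxyd3 after 1 gene, Lgi4.

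Values are log2 expression values as the authors deposited them. They are not on one scale over the 12 arrays. The median over the tested genes was 6.81 to 6.97 on the 6 arrays at 48 h and 7.43 to 7.58 on 4 of the 6 arrays at 24 h. The other two at 24 h, replicate 1 at 300 mOsm/kg and replicate 3 at 640 mOsm/kg, had medians of 6.89 and 6.90. Each osmolality has 1 such array at 24 h, so the comparison of 300 with 640 holds equal parts of both scales, while their spread and the comparison over time do not. Results are therefore also given after every array was shifted to a common median, called centred below. The water channel Aqp2, the hallmark of collecting duct principal cells, changed at 300 mOsm/kg by -3.63 ± 0.32 (log2, SE) at 24 h and by -4.41 ± 0.32 at 48 h (limma, adjusted p = 0.000172 and 1.29e-05). The osmolyte genes Akr1b1, aldose reductase, and Slc5a3, the myo-inositol transporter, were also lower at 48 h, with log2 changes of -1.34 and -2.55 (limma, adjusted p = 0.0039 and 0.00256). Nfat5, which switches on genes of the hypertonic response, had log2 changes of -0.21 and -0.22 at 24 and 48 h and was not called. Among markers of the labelled cell type, all 6 principal cell genes had negative changes at both times. Of these, 1 was called at 24 h and 4 at 48 h, where 0.0758% and 0.545% of all genes were called lower. The mean log2 value of these 6 genes was 6.73 to 7.80 on the arrays at 300 and 8.14 to 9.00 on those at 640 mOsm/kg at 24 h, and 6.69 to 6.98 against 8.59 to 8.63 at 48 h. Because whole cultures were measured, fewer cells of a type and less RNA per cell cannot be told apart.

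Fxyd2, the gamma subunit, had the largest difference of the 9 members. Its log2 values were 7.68, 7.55 and 7.48 in the cells at 300 mOsm/kg for 24 h, against 9.57, 9.40 and 9.06 in the cells at 640 mOsm/kg for 24 h. After 48 h they were 7.43, 7.57 and 8.12 at 300 mOsm/kg, against 10.4, 10.2 and 9.43 at 640 mOsm/kg. All 6 arrays at 300 mOsm/kg lay below all 6 arrays at 640 mOsm/kg. The mean fell to 7.57 ± 0.10 in the cells at 300 mOsm/kg at 24 h, against 9.34 ± 0.26 in those at 640 mOsm/kg (SD, n = 3 each), a log2 change of -1.77 ± 0.26 (SE, 95% interval -2.33 to -1.21). This is 3.41-fold lower, with an adjusted p of 0.0142 (limma, Benjamini-Hochberg over all genes). At 48 h the means were 7.71 ± 0.37 and 10.01 ± 0.51, a log2 change of -2.30 ± 0.26 (95% interval -2.86 to -1.74), which is 4.93-fold lower (limma, adjusted p = 0.000417). Averaged over both times the change was -2.04 ± 0.19 (limma, adjusted p = 4.28e-05). In order, the groups ran from 24 h at 300, over 48 h at 300 and 24 h at 640, to 48 h at 640. The neighbours within each osmolality did not pass the test against each other. The call at 24 h was lost without replicate 3 at 300 (limma, adjusted p = 0.0917), without replicate 1 at 640 (0.135) and when only the 6 arrays at 24 h were fitted (0.129). At 48 h it held in all 16 alternatives.

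Fxyd4, also called CHIF or corticosteroid hormone-induced factor, is a pump regulator that in rats is made in the collecting duct and the distal colon and raises the sodium affinity of the pump. At 24 h its values were 10.5, 10.2 and 10.7 at 300 mOsm/kg, against 11.4, 10.5 and 10.6 at 640 mOsm/kg, and the groups overlapped. At 48 h they were 9.70, 9.59 and 9.94 at 300 mOsm/kg, against 11.0, 10.8 and 10.6 at 640 mOsm/kg, with every array at 300 below every array at 640. The log2 change was -0.38 ± 0.24 at 24 h (95% interval -0.89 to 0.14) and -1.06 ± 0.24 at 48 h (95% interval -1.58 to -0.54, 2.08-fold). The change at 48 h had an unadjusted p of 0.000594 and missed the threshold over all genes (limma, adjusted p = 0.0712, and 0.0744 on centred arrays). After cyclic loess between arrays it passed (limma, adjusted p = 0.0417). The mean over both times was -0.72 ± 0.17 (limma, adjusted p = 0.0584), and passed without replicate 2 or replicate 3 of the cells at 640 mOsm/kg for 24 h (adjusted p = 0.0372 and 0.0375).

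**Figure D1:**
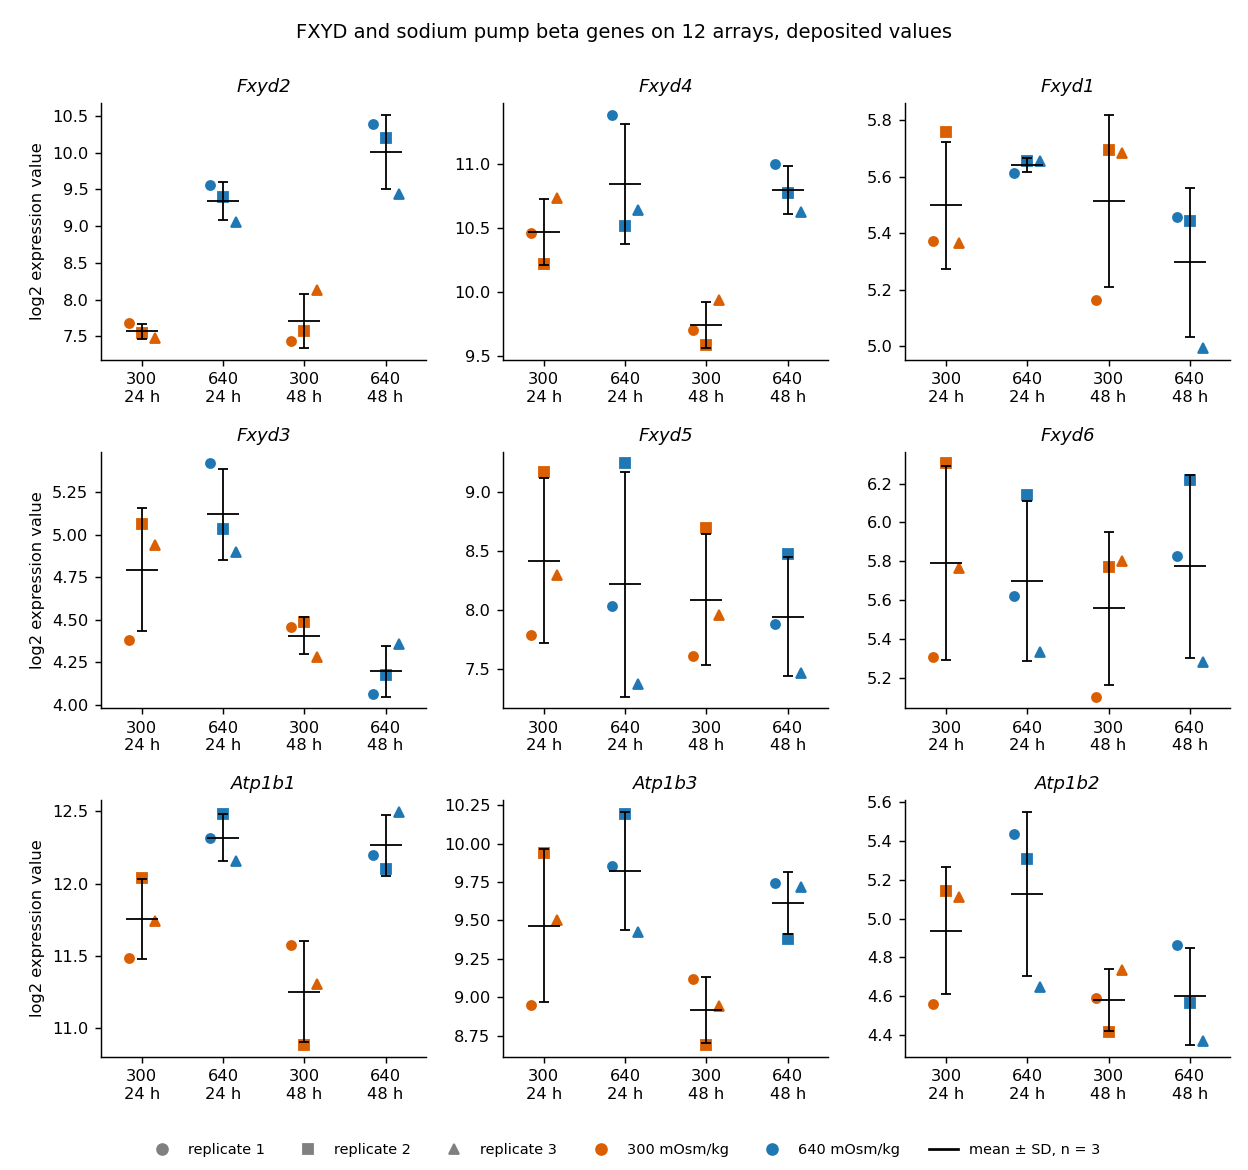
Log2 expression values of the 9 genes as deposited, with 1 point per array, marker shape for the replicate number, and a bar for the mean and SD of 3 arrays. The arrays at 300 mOsm/kg lie below those at 640 mOsm/kg at both times for Fxyd2 and Atp1b1, and at 48 h also for Fxyd4 and Atp1b3. Each panel has its own vertical axis.

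The other FXYD genes overlapped between 300 and 640 mOsm/kg at both times on the deposited values. Fxyd1, phospholemman, which is best known from heart and skeletal muscle, ranged from 5.16 to 5.76 over the arrays at 300 and from 4.99 to 5.66 over those at 640 mOsm/kg. Its log2 change was -0.14 ± 0.21 at 24 h and 0.22 ± 0.21 at 48 h, with 95% intervals of -0.60 to 0.31 and -0.24 to 0.67. Fxyd3, first described in mammary tumours, was among the dimmest 30% of all genes, with 4.28 to 5.06 at 300 and 4.06 to 5.42 at 640 mOsm/kg. Its changes were -0.32 ± 0.22 at 24 h and 0.21 ± 0.22 at 48 h. On centred arrays its values at 48 h were all higher at 300 than at 640 mOsm/kg, without passing the test. The intervals of both genes reach to less than 1 on the log2 scale in either direction.

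Fxyd5, dysadherin, differs from the other members by a long extracellular part and is known to weaken adhesion between cells. Its values at 24 h were 7.79, 9.17 and 8.30 at 300 mOsm/kg, against 8.04, 9.25 and 7.37 at 640 mOsm/kg. At 48 h they were 7.62, 8.70 and 7.96 at 300 mOsm/kg, against 7.89, 8.48 and 7.47 at 640 mOsm/kg. Replicate 2 was the highest array in all 4 groups, and the arrays of one group spread further than the groups differed. The changes of Fxyd5 were 0.20 ± 0.45 and 0.14 ± 0.45, and their intervals, -0.77 to 1.17 and -0.82 to 1.11, leave the direction unsettled. Fxyd6, phosphohippolin, first described in the brain, ranged from 5.10 to 6.30 at 300 and from 5.28 to 6.22 at 640 mOsm/kg. Replicate 2 was its highest array in 3 of the 4 groups. Its changes were 0.09 ± 0.31 at 24 h and -0.22 ± 0.31 at 48 h, beside the drop of its neighbour Fxyd2.

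The macrophage gene Cd68, taken from the leukocyte marker list after its values were seen, was also highest on replicate 2 in all 4 groups. It had 7.07, 9.22 and 8.09 at 300 mOsm/kg against 7.99, 8.69 and 6.72 at 640 mOsm/kg at 24 h, and 6.81, 7.75 and 6.86 against 7.40, 8.34 and 7.07 at 48 h. The leukocyte list had 4 of 4 genes measured, and their mean log2 value was 6.00 to 7.11 at 300 and 6.43 to 7.53 at 640 mOsm/kg at 24 h, and 6.45 to 6.89 against 6.94 to 7.33 at 48 h. Of the other 3 leukocyte genes, Lyz2 was highest on replicate 2 in 3 groups, Ptprc in 2 and Csf1r in 1. These counts are on the deposited values, and at 24 h replicate 2 had the highest median of both groups. Its medians were 7.58 at 300 and 7.57 at 640 mOsm/kg. How many of all genes were highest on replicate 2 was not counted. The part of leukocytes in the Fxyd5 values was not tested.

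**Figure D2:**
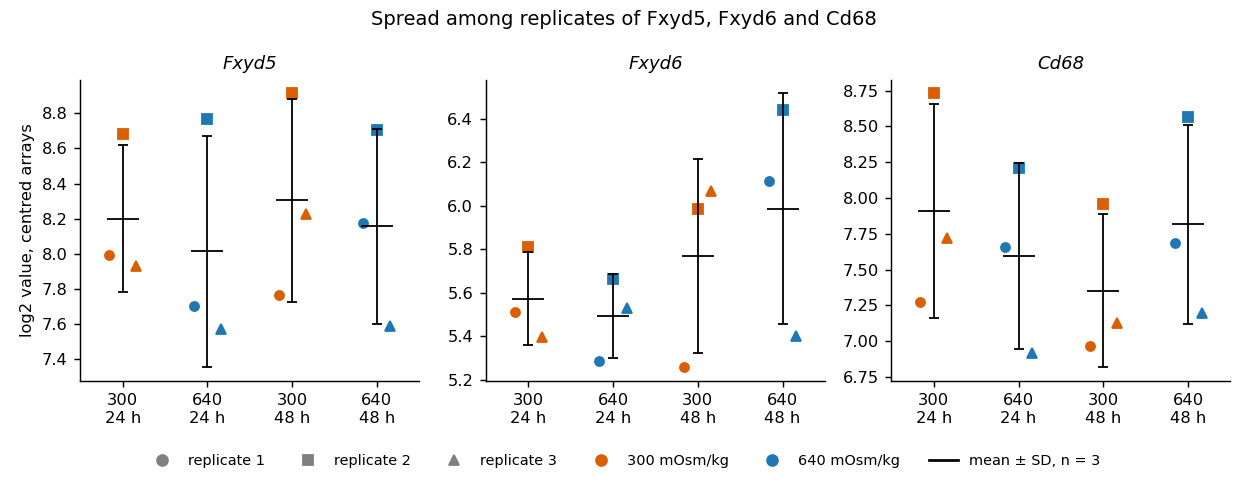
Log2 values on centred arrays of Fxyd5, Fxyd6 and the macrophage gene Cd68, with 1 point per array, marker shape for the replicate number, and a bar for the mean and SD of 3 arrays. Replicate 2 (squares) is the highest array of each group for Fxyd5 and Cd68, and the groups at 300 and 640 mOsm/kg overlap.

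Atp1b1 encodes the beta subunit that is paired with the pump in most epithelia of the kidney. Its values at 24 h were 11.5, 12.04 and 11.7 at 300 mOsm/kg, against 12.3, 12.5 and 12.2 at 640 mOsm/kg. At 48 h they were 11.6, 10.9 and 11.3 at 300 mOsm/kg, against 12.2, 12.1 and 12.5 at 640 mOsm/kg. The arrays at 300 lay below those at 640 mOsm/kg at each time. The change was -0.56 ± 0.22 at 24 h (95% interval -1.04 to -0.08; limma, adjusted p = 1.000) and -1.01 ± 0.22 at 48 h (95% interval -1.49 to -0.53, 2.01-fold). At 48 h it missed the threshold on the deposited values (limma, adjusted p = 0.0603) and passed it on centred arrays (0.00914). The mean over both times was -0.79 ± 0.16 and was called (limma, adjusted p = 0.0211, and 0.00253 on centred arrays). That call was lost in 6 of the 12 fits that left out 1 array, with adjusted p up to 0.0732 without replicate 2 at 300 mOsm/kg for 48 h. The other 5 were fits without replicate 3 at 300 or replicate 1 at 640 mOsm/kg for 24 h, without replicate 3 at 300 for 48 h, and without replicate 1 or 3 at 640 for 48 h.

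Atp1b3 encodes another beta subunit, found in many tissues. Its values at 24 h were 8.95, 9.94 and 9.50 at 300 mOsm/kg, against 9.85, 10.2 and 9.42 at 640 mOsm/kg, and overlapped, while on centred arrays those at 300 lay below those at 640. At 48 h they were 9.12, 8.69 and 8.94 at 300 mOsm/kg, against 9.74, 9.38 and 9.72 at 640 mOsm/kg, without overlap. The change was -0.36 ± 0.27 at 24 h and -0.70 ± 0.27 at 48 h (95% interval -1.26 to -0.13; limma, adjusted p = 0.678). On centred arrays the change of Atp1b3 at 48 h was nearly the same, -0.69 ± 0.17, with a smaller error (limma, adjusted p = 0.0578), and the mean over both times, -0.53 ± 0.12, was called (adjusted p = 0.0214). Atp1b2, the beta subunit known mainly from glia and other cells of the nervous system, was among the dimmest 30% of genes. It ranged from 4.41 to 5.14 at 300 and from 4.37 to 5.43 at 640 mOsm/kg, with changes of -0.19 ± 0.25 and -0.02 ± 0.25. On centred arrays its values at 24 h were all lower at 300 than at 640 mOsm/kg, without passing the test.

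**Figure D3:**
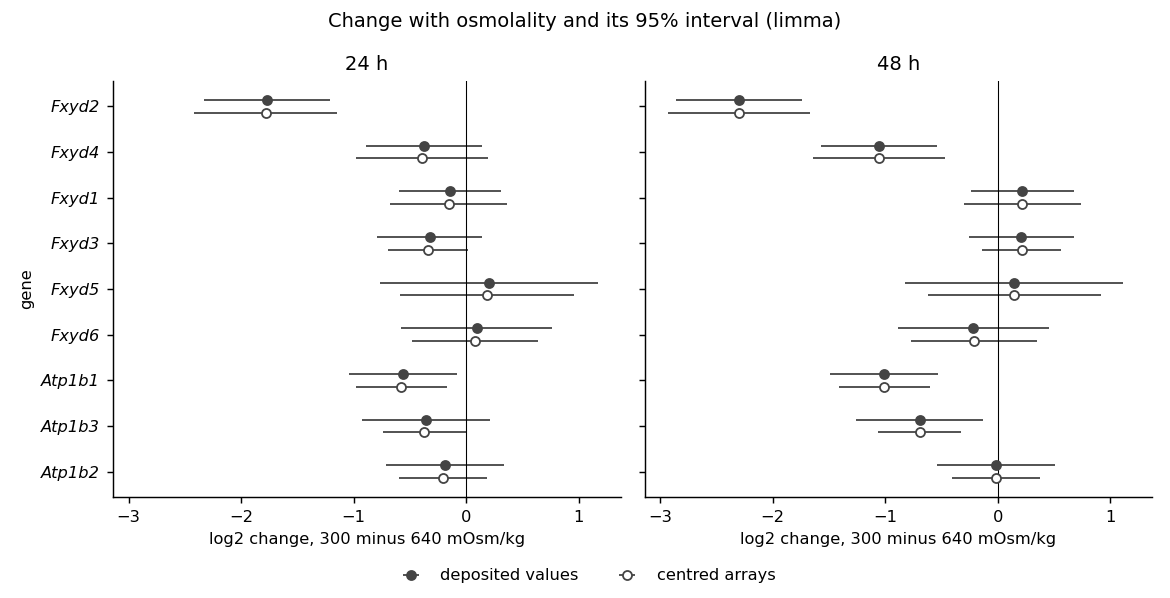
Log2 change, 300 minus 640 mOsm/kg, of the 9 genes at 24 h and at 48 h, with 95% intervals from limma, on deposited values (filled) and centred arrays (open). Fxyd2 stands at -1.77 and -2.30, Fxyd4 and Atp1b1 near -1 at 48 h, and the intervals of Fxyd1, Fxyd3, Fxyd5, Fxyd6 and Atp1b2 include 0 at both times.

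Read against all genes, 1 of the 9 members was called lower at 24 h (Fxyd2), where 0.0758% of the 14506 genes were. Because the members were chosen with earlier results known, these shares give a scale and do not test the members as a set. At 48 h 1 was called lower (Fxyd2), against 0.545% of genes, and for the mean of both times 2 were (Fxyd2 and Atp1b1), against 0.869%. On centred arrays the members called lower were 1 at 24 h, against 0.379% of genes, 2 at 48 h (Fxyd2 and Atp1b1), against 1.33%, and 3 for the mean (with Atp1b3 added), against 2.1%. After cyclic loess there were 4, with Fxyd4 added, at 48 h and for the mean, against 1.5% and 2.34% of genes. No member was called higher on any of these 3 scales. On the deposited values the arrays at 300 lay wholly below those at 640 mOsm/kg for 2 members at 24 h, as for 2.69% of all genes, and for 4 members at 48 h, as for 6.62%. On centred arrays they did so for 4 members at 24 h, with Atp1b2 and Atp1b3 added, as for 4.86% of all genes, and for 4 at 48 h, as for 7.02%. Changes were negative for 7 of the 9 members at 24 h, with a median of -0.32, and for 55.7% of all genes, with a median of -0.02. At 48 h 6 of the 9 were negative, with a median of -0.22, against 45.8% and a median of 0.02 over all genes. The dimmest 30% of genes include Fxyd3 and Atp1b2, and the other 7 members lay above that limit.

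The change with osmolality was not shown to differ between 24 and 48 h for any member. The difference of the 2 changes was -0.53 ± 0.37 for Fxyd2, -0.68 ± 0.34 for Fxyd4, -0.45 ± 0.32 for Atp1b1 and -0.34 ± 0.37 for Atp1b3. It ranged from -0.68 to 0.53 over the 9 members, the highest being that of Fxyd3, at 0.53 ± 0.31. No member passed limma's test, and 0 of 9 had an unadjusted p under 0.05. The share called among all genes was 0% on the deposited values and 0.0276% on centred arrays, where 1 member, Fxyd3, had an unadjusted p under 0.05. The 95% interval for Fxyd2, -1.33 to 0.26, still includes a clearly stronger drop at 48 h.

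Over time, 48 h minus 24 h, 0 members were called by limma at 300 or at 640 mOsm/kg, with 0% and 0% of all genes called on the deposited values and 0.255% and 0.138% on centred arrays. At an unadjusted p under 0.05 there were 2 and 3 members on the deposited values, where 23.2% and 28.1% of all genes had such a p, and 0 and 2 on centred arrays, against 7.62% and 6.58%. The median change of all genes on the deposited values was -0.38 at 300 and -0.41 at 640 mOsm/kg, which goes with the scale of the arrays. Against that shift Fxyd2 was higher at 48 h than at 24 h at 640 mOsm/kg, by 0.67 ± 0.26 on deposited values (limma, adjusted p = 0.154) and by 1.08 ± 0.30 on centred arrays (limma, adjusted p = 0.351), and was called on neither. On centred arrays Fxyd2 had 10.7, 10.4 and 9.55 at 48 h and 9.23, 8.92 and 9.25 at 24 h at 640 mOsm/kg, without overlap. On the deposited values these groups overlapped, with 9.43 on replicate 3 at 48 h and 9.57 on replicate 1 at 24 h. The share of all genes without overlap over time was not counted. At 300 mOsm/kg the change of Fxyd2 over time was 0.57 ± 0.30 on centred arrays (limma, adjusted p = 0.694). For Fxyd4 the change over time on centred arrays was -0.30 ± 0.28 at 300 mOsm/kg and 0.37 ± 0.28 at 640 mOsm/kg, and for Atp1b1 it was -0.07 ± 0.19 at 300 and 0.36 ± 0.19 at 640 mOsm/kg. Fxyd3 had a change over time at 640 mOsm/kg of -0.92 ± 0.22 on deposited values and of -0.50 ± 0.17 on centred arrays, and was not called on either (limma, adjusted p = 0.143 and 0.515). Calls over time on the deposited values appeared when a low-median array at 24 h was left out. Without replicate 1 at 300 mOsm/kg Atp1b3 had a change of -0.80 (limma, adjusted p = 0.0418), and without replicate 3 at 640 mOsm/kg Fxyd3 and Atp1b2 had changes of -1.03 and -0.77 (adjusted p = 0.0374 and 0.0401). With both of these arrays left out, 50.4% of all genes were called at 300 and 55.9% at 640 mOsm/kg, so calls of this kind say nothing particular about the members.

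Of the 9 further genes of the pump family listed, 5 were measured and none was called in a comparison of osmolality on deposited or centred values, with 0 at an unadjusted p under 0.05. They were Atp1a4, a catalytic subunit of the testis, Atp1b4, a beta-like protein of muscle, Fxyd7, a brain FXYD protein, Atp12a, the catalytic subunit of the non-gastric proton and potassium pump, and Atp4b, the beta subunit of the gastric one. Their changes ran from -0.20 to 0.05 at 24 h and from -0.14 to 0.06 at 48 h. Of these 5 only Fxyd7, with a mean log2 value of 6.77, lay above the dimmest 30% of genes. Its change was -0.13 ± 0.20 at 24 h and 0.00 ± 0.20 at 48 h. The other 4 listed genes were not analysed here.

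Among genes that act on the pump, anchor it or set its load, 20 of 23 listed were measured. On the deposited values 1 was called, for the mean of both times, where 0.869% of all genes were called lower. Sgk1, a kinase induced by aldosterone and by cell stress that raises sodium transport, had 11.8, 12.3 and 12.3 at 300 mOsm/kg against 12.7, 12.8 and 12.5 at 640 mOsm/kg at 24 h. At 48 h it had 11.96, 11.6 and 11.9 at 300 mOsm/kg against 12.7, 12.6 and 12.8 at 640 mOsm/kg. The arrays of Sgk1 did not overlap at either time, and its mean change was -0.71 ± 0.14 (limma, adjusted p = 0.0163). On centred arrays 2 more passed for the mean of both times, where 2.1% of all genes were called lower. These were Sik1, a salt-inducible kinase reported to act on the pump, at -0.69 ± 0.15 (limma, adjusted p = 0.0147), and Slc12a2, the basolateral sodium, potassium and chloride cotransporter, at -0.62 ± 0.15 (limma, adjusted p = 0.0323). On the deposited values the median change of the 20 genes was -0.15 at 24 h and -0.12 at 48 h.

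**Figure D4:**
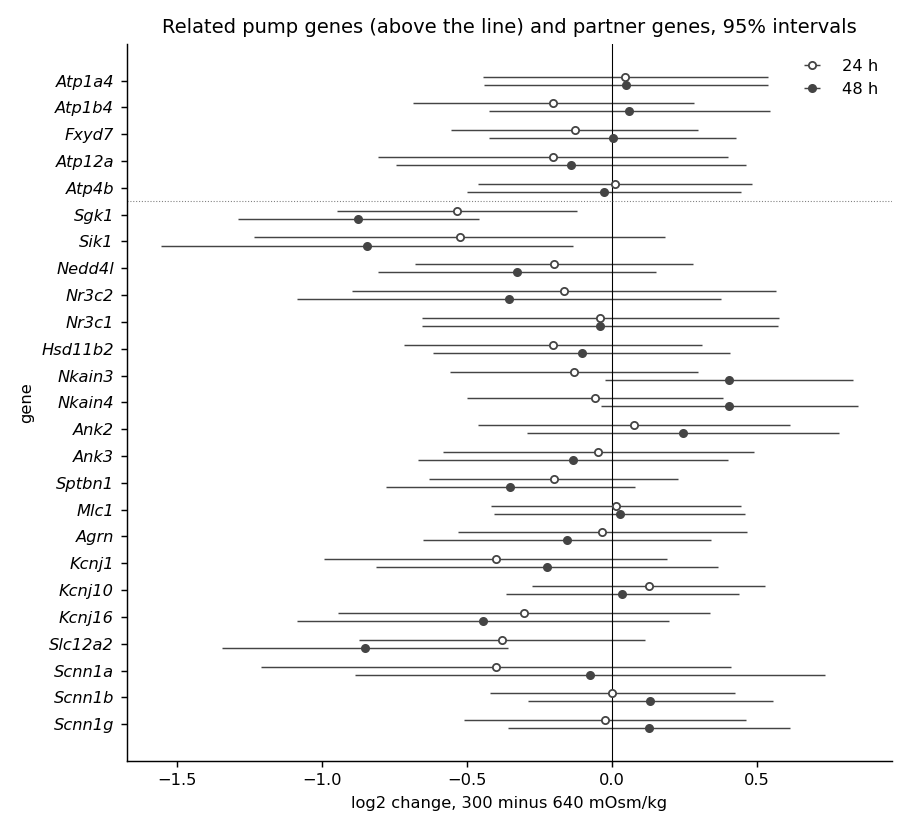
Log2 change, 300 minus 640 mOsm/kg, of 5 related pump genes (above the dotted line) and 20 partner genes at 24 h (open) and 48 h (filled), deposited values, with 95% intervals from limma. The pump genes lie between -0.20 and 0.06, while Sgk1, Sik1 and Slc12a2 lie between -0.88 and -0.85 at 48 h.

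The genes whose profile over the 12 centred arrays was most like that of a called member were found by the root mean square difference between profiles, each gene taken about its own mean. For Fxyd2 they were Akr7a3, an aldehyde reductase (0.39), S100a4, a calcium-binding protein (0.40), Aqp1, a water channel (0.41), Muc1, a membrane mucin (0.44), and Sla, an adaptor protein (0.48). The median difference from Fxyd2 over all genes was 1.17. At 24 h the change of Fxyd2, -1.77, stood beside -1.31 for Akr7a3, -1.26 for S100a4, -1.98 for Aqp1, -1.62 for Muc1 and -0.98 for Sla. Of these, Aqp1 and Muc1 were called at 24 h (limma, adjusted p = 0.0142 each). Akr7a3, S100a4 and Sla were not (limma, adjusted p = 0.0674, 0.0796 and 0.261). For Atp1b1 the most alike genes were Foxq1, a forkhead transcription factor (0.10), Sgk1 (0.13), Man1c1, a Golgi mannosidase (0.14), Me1, the cytosolic malic enzyme (0.14), and Mras, a small GTPase (0.14). The median for Atp1b1 was 0.50. All points share the same 12 arrays, and likeness of a profile over these is a description.

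**Figure D5:**
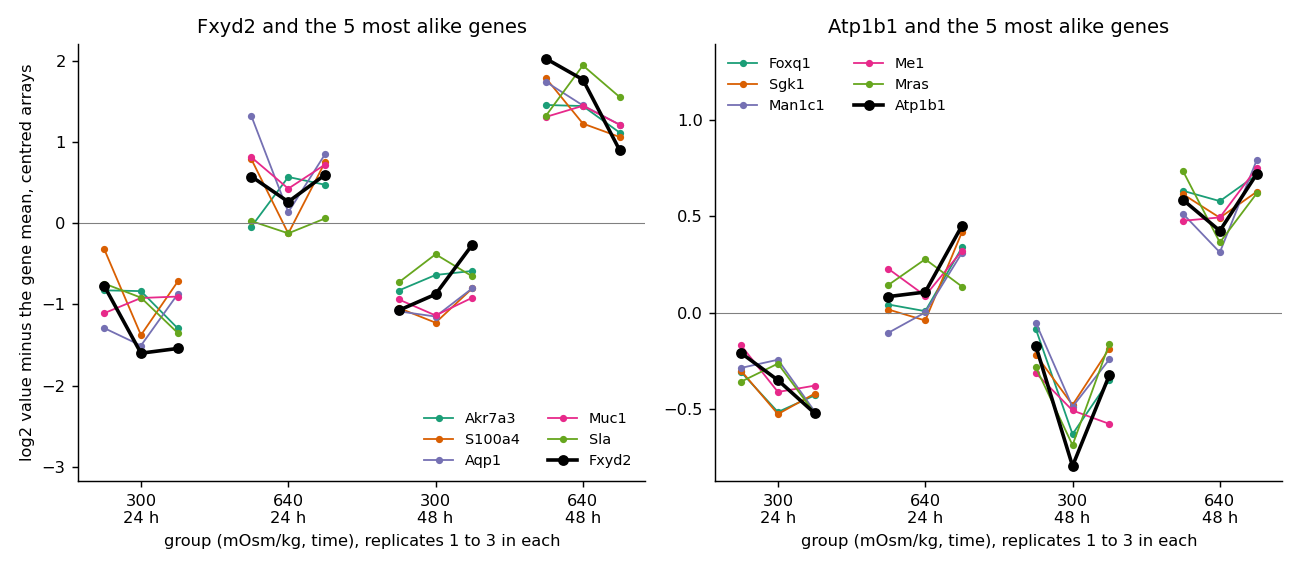
Log2 values about each gene's mean on centred arrays for Fxyd2 (left) and Atp1b1 (right) in black, each with its 5 most alike genes. Points are the 3 replicates of a group, joined only for legibility. Each set lies below 0 on all arrays at 300 mOsm/kg and near or above 0 at 640 mOsm/kg.

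Aqp1 is also a marker of the thin descending limb of the loop of Henle, a neighbour of the inner medullary collecting duct. Of the 5 listed markers of loop of Henle limbs, 4 were measured. Their mean log2 value was 6.59 to 7.41 at 300 and 7.74 to 8.64 at 640 mOsm/kg at 24 h. At 48 h it was 6.31 to 6.47 at 300 against 7.89 to 8.001 at 640 mOsm/kg. This mean includes Aqp1, found above by its likeness to Fxyd2, and Slc14a2, which is also on the principal cell list. A lower mean at 300 mOsm/kg is therefore partly built in, and the principal cell mean was lower there too. Aqp1 changed by -1.98 ± 0.29 and -2.48 ± 0.29 (limma, adjusted p = 0.0142 and 0.000537). Slc12a1, the cotransporter that defines the thick ascending limb, changed by -0.92 ± 0.26 at 24 h and -1.17 ± 0.26 at 48 h and was called only for the mean of both times (limma, adjusted p = 0.0073). Slc14a2, which the collecting duct also makes, changed by -1.33 ± 0.46 and -2.54 ± 0.46, and Umod, the other defining gene of the thick ascending limb, by 0.07 ± 0.21 and -0.10 ± 0.21. Umod had a low mean of 4.79 at 300 and 4.72 at 640 mOsm/kg at 24 h. The part of loop cells in the change of Fxyd2 was not tested.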

How the data were processed

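Total RNA of 12 samples was measured, 3 in each of 4 groups, and the titles gave both group and replicate number. Where codes in the descriptions named other osmolalities, the titles were followed. The authors deposited 1 table of log2 values made with RMA and Affymetrix Power Tools, per the submitters' processing notes. Their versions are not given in the sources used here. These log2 values ran from 1.12 to 13.9. Intensities and detection calls were not used here, so a detection limit is unknown, and the number of arrays limits the precision.

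Of 27596 probe sets, 15310 had a single gene symbol, which gave 14506 genes. limma 3.58.1 in R 4.3.3 (lmFit, eBayes, 1 mean per group over 12 arrays) gave changes, moderated standard errors and p-values, and genes were called where the p adjusted by Benjamini-Hochberg was under 0.05. The fit was tested on simulated data with independent noise and a common array median. Such data lack the unequal medians and the correlated arrays of the deposited values, so the test does not cover these. Alternatives were centring, cyclic loess, quantile normalization, leaving out the dimmest 30% of genes, averaging the probe sets of a gene, eBayes with trend and robust priors, weighted arrays, a block for the replicate number, fitting only the groups compared, and omitting each array in turn. Leaving out the 2 arrays with low medians at 24 h was chosen after seeing the data.

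Named were all members, every measured gene of a list of further pump genes, partner genes called in a comparison of osmolality on deposited or centred values, the 5 genes most alike to each called member, and genes checking the labels. The members and lists were chosen with earlier results of these data known. Promoters came from RefSeq (GRCr8), matched by symbol. Fxyd2, Fxyd3 and Atp1b1 have none shown.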

Additional observations from a re-analysis of the deposited data

How the results depend on the processing

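Shares of all genes called lower in the same fit stand in brackets. Fxyd2 kept its direction in all alternatives of the osmolality comparisons, and its call at 48 h and for the mean of both times. The count of members called at 24 h was 0 (0.0207%) when only the groups compared were fitted, and 0 to 1 over the fits without 1 array. At 48 h the count was 2 with centring (1.33%), quantile normalization (1.34%) or trend and robust settings (0.586%), 3 with only the groups compared (1.10%), 4 with cyclic loess (1.5%) or array weights (1.91%), and 1 in each fit without 1 array. For the mean of both times it was 4 with cyclic loess (2.34%) or array weights (2.63%), and 1 to 3 over the fits without 1 array. The main shares were 0.0758%, 0.545% and 0.869%, so most higher member counts stand beside higher shares. Over time, array weights gave 5 members called at 300 mOsm/kg and 3 at 640 mOsm/kg, where 70.2% and 63.7% of all genes were called in either direction, and fits without 1 array gave 0 to 1 and 0 to 2. In one of these, without replicate 3 at 300 mOsm/kg for 48 h, the uncalled change of Fxyd2 over time at 300 mOsm/kg was -0.07. The cause of these shifts was not tested. Without the 2 arrays with low medians at 24 h, the change of Fxyd2 there was -1.97 (limma, adjusted p = 0.0231).

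Equal replicate numbers marked alike samples for replicate 2 only. For this, each array was taken, gene by gene, as its deviation from the mean of its group. Such deviations cancel within a group, so some negative correlations are built in. The deviations of same-numbered arrays at 300 and 640 mOsm/kg were correlated across 14506 genes, which are not independent replicates. The correlations were -0.13, 0.84 and -0.21 at 24 h and -0.23, 0.80 and -0.22 at 48 h. Unlike numbers were closer for the rest: replicate 1 at 300 with replicate 3 at 640 mOsm/kg correlated at 0.83 and 0.78, and replicate 3 at 300 with replicate 1 at 640 mOsm/kg at 0.58 and 0.63. This is a hint from the data and not from the labels, and no such matching was fitted. With the replicate number as a block, which therefore joins mostly unlike arrays, the counts of members called were 1 at 24 h (0.117%), 1 at 48 h (0.634%) and 3 for the mean (1.01%), where Fxyd4 was added (limma, adjusted p = 0.043). With the block on centred arrays they were 1, 4 and 4 (0.607%, 1.90% and 3.02%).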
